A study of Mus musculus with 24 samples.

Results

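Lungs of mice given ovalbumin (OVA), a hen egg white protein used as a model allergen, were compared with lungs of mice given saline, where both had breathed filtered air. The comparison rests on 8 of the 24 Affymetrix arrays of the series, 4 titled as lung from air with OVA and 4 as lung from air with saline. Per the labels, all 8 came from mice that breathed filtered air for 4 hours a day on 5 days, and received 100 ug of OVA, or saline, on 3 days. The other 16 arrays are from mice that breathed diesel exhaust (DE) at 500 or 2000 ug/m3 on the same schedule, with saline or OVA, 4 arrays a group. RNA came from frozen lung. The labels give no strain, sex, age, route of OVA or time between the last dose and collection. They also do not say whether the replicates are separate animals, so the p-values measure only the spread between these samples, which may be technical. With 4 arrays a group, the number of arrays limits the precision of every value.

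An allergen that reaches a sensitized lung is known to draw T helper 2 cells, whose cytokines Il4, Il5 and Il13 bring in eosinophils, make airway cells secrete mucus, and induce the chitinase-like protein Chil3 and the resistin-like protein Retnla. Labelled cRNA for these arrays is copied from the poly(A) tail. Where RNA is broken or copying stops early, probes near the 5' end of a transcript therefore receive less signal than probes near its 3' end. The array carries separate control probe sets for the 3' and the 5' end of Gapdh, a glycolytic enzyme, and of actin, a cytoskeletal protein. The ratio of their signals is a routine measure of how evenly transcripts were copied.

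The saline and OVA arrays differed in this control before any gene was compared. The mean of the Gapdh and actin log2 3'/5' ratios, called the ratio here, was 1.72, 0.98, 2.90 and 1.36 on the saline arrays of replicates 1 to 4. On the OVA arrays it was 0.10, 0.20, -0.03 and 0.04. Each saline array lay above each OVA array, and saline replicate 3 was the highest of the 8. The saline group averaged 1.74 ± 0.83 (SD, n = 4) and the OVA group 0.08 ± 0.10, which is -1.67 apart, or 3.17-fold on the linear scale. The Gapdh ratio alone differed by -1.91 and the actin ratio alone by -1.42. B1, a short repeat carried by many unspliced transcripts, had its own probe set, which read 12.88 ± 0.36 (log2, SD, n = 4) in saline and 11.68 ± 0.27 in OVA. The array median was 7.71 in saline and 7.83 in OVA on the log2 scale, and those values did not overlap either. Each of these differences had an exact permutation p of 0.0286 (two-sided), the smallest that 4 against 4 arrays can give, and 0.0343 after Benjamini-Hochberg adjustment over 6 measures. The spiked hybridization controls, which do not pass through the tissue RNA, averaged 9.71 in saline, against 9.31 in OVA (two-sided exact permutation p = 0.114).

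**Figure D1:**
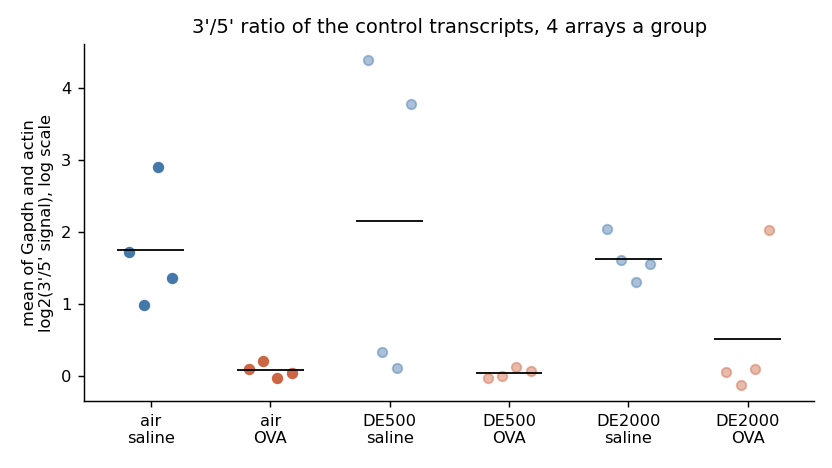
Log2 3'/5' ratio, averaged over Gapdh and actin, on each of the 24 arrays (points) by group, with the group mean as a bar. Dark points are the 8 air arrays, where the saline arrays sit between 0.98 and 2.90 and the OVA arrays between -0.03 and 0.20; DE500_saline holds both the highest arrays, near 4.38 and 3.77, and arrays near 0.

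The comparison was therefore made in both ways, once with the group means alone and once with the ratio added to the model as a covariate. The covariate fit estimates how each probe set follows the ratio among arrays of the same group, and 73.4% of that within-group variation (sum of squares) came from DE500_saline, 15% from DE2000_OVA and 10% from the air saline arrays. In the air arrays alone the ratio and OVA cannot be told apart. The covariate values therefore rest on slopes taken largely from other groups. A gene is spoken for by its probe set of highest mean signal, and called when its adjusted p was under 0.05 (limma, Benjamini-Hochberg over 13576 probe sets).

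Without the covariate, 1089 of 8315 tested genes were called (13.1%), 446 higher in OVA (5.36%) and 643 lower (7.73%). With the covariate, 124 genes were called (1.49%), 38 higher (0.457%) and 86 lower (1.03%). Both fits called 118 genes in the same direction (1.42%), 36 higher (0.433%) and 82 lower (0.986%). Of the 446 genes called higher without the covariate, 308 had a called slope on the ratio of the opposite sign, and 0 had one of the same sign. Of the 643 called lower, 287 had a called slope of opposite sign and 1 of the same sign. The median difference of the genes called higher moved from 0.74 to 0.42 (log2) with the covariate, and that of the genes called lower from -0.63 to -0.44. Over all tested genes the slope itself was called for 2758 (33.2%). By probe set the counts were 2004 without the covariate (14.8%) and 240 with it (1.77%), and 4418 and 2236 had an unadjusted p under 0.05. Leaving out saline replicate 3, the array of highest ratio, left 450 probe sets called without the covariate, and leaving out saline replicate 1, OVA replicate 1, 3 or 4 left 985, 772, 1147 or 915. With the covariate, leaving out OVA replicate 1 left 70, and saline replicate 1 or 2, OVA replicate 2 or 4 left 150, 74, 129 or 103. Setting each array to the same median lowered the median difference of all genes from -0.04 to -0.16, and the share of called probe sets that were higher in OVA from 51.6% to 39.5%.

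**Figure D2:**
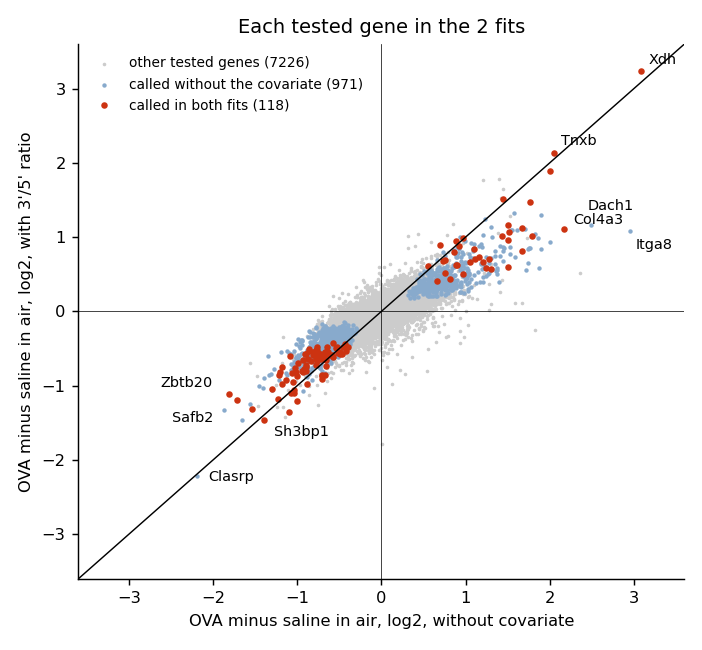
OVA minus saline in air (log2) of each tested gene without the covariate (x axis) and with the 3'/5' ratio as covariate (y axis); the line marks equal values. Genes called in both fits (118) are red, and Xdh, Tnxb and Sh3bp1 lie near the line, while Itga8, Dach1 and Col4a3 lie well below it.

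The 118 genes called in both fits are described first, and they kept their direction in every fit that left out 1 air array. Calls were less stable: with the covariate, between 8 and 26 of the 36 genes that rose and between 21 and 61 of the 82 that fell were still called. Arrays DE500_saline 1 and 4 and DE2000_OVA 4 stand apart from their groups in the ratio. Without these 3, all 36 and 82 were called without the covariate, but 3 and 2 were called with it. The median standard error (SE) of the covariate values over all tested probe sets then grew from 0.192 to 0.295. All 118 genes kept their sign. A fit of the 8 air arrays alone with the covariate called 0 probe sets in limma, with 1556 at an unadjusted p under 0.05.

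Among the genes that rose, Xdh, which encodes the purine-degrading enzyme xanthine dehydrogenase, showed the largest difference. Its log2 signal was 6.68, 6.89, 7.30 and 7.46 on the saline arrays and 9.02, 11.09, 9.51 and 11.05 on the OVA arrays. The groups did not overlap, and OVA replicates 2 and 4 stood above OVA replicates 1 and 3. The difference was 3.09 ± 0.42 (log2, SE; 8.5-fold; limma adjusted p = 0.000399), and 3.24 ± 0.46 with the covariate (adjusted p = 0.00099). Xdh was called in both fits whichever air array was left out, and also with both the ratio and B1 as covariates (limma adjusted p = 0.0292). Its covariate call was lost without the 3 arrays that stand apart (adjusted p = 0.0789).

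Tnxb, an extracellular matrix protein of the tenascin family, read 6.74, 7.50, 7.67 and 8.46 in saline and 9.13, 9.78, 9.95 and 9.72 in OVA. It rose by 2.05 ± 0.35 (4.15-fold; limma adjusted p = 0.00234), and by 2.14 ± 0.39 with the covariate. For Xdh and Tnxb the covariate left the size of the rise nearly as it was, since their slopes on the ratio were 0.09 and 0.05 per unit and not called. The rise of Ociad1, a protein of endosomes and mitochondria, was smaller and tighter. Its arrays lay at 10.03, 10.04, 9.97 and 9.72 in saline and at 10.72, 10.93, 10.93 and 10.71 in OVA, 0.88 ± 0.12 apart (limma adjusted p = 0.000399; 0.95 ± 0.13 with the covariate). Fdps makes farnesyl diphosphate in the pathway to cholesterol. It read 8.29, 8.61, 8.51 and 8.68 in saline and 10.04, 10.06, 9.81 and 9.89 in OVA, a rise of 1.43 ± 0.23 (2.69-fold; limma adjusted p = 0.0015), or 1.02 ± 0.18 with the covariate. Ociad1 and Fdps were among the 3 rises still called with the covariate when the 3 arrays that stand apart were left out (limma adjusted p = 0.0488 for both). The other was Cask, a scaffold of cell junctions, which was picked after its values were seen.

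Other genes rose in both fits by smaller or less stable amounts. Copg2, a subunit of the COPI vesicle coat, rose by 1.77 ± 0.24 and by 1.48 ± 0.24 with the covariate. Rab5c, a GTPase of early endosomes, rose by 2.00 ± 0.45, with a covariate value of 1.90 ± 0.50 at the edge of the threshold (limma adjusted p = 0.0499), and that call was lost in 7 of the 8 fits that left out an air array, all but the one without saline replicate 4. Rraga, a GTPase that brings the growth regulator mTORC1 to lysosomes, rose by 1.67 ± 0.29 (1.12 ± 0.21 with the covariate). Ids, a lysosomal sulfatase, rose by 1.52 ± 0.31 (1.07 ± 0.28), and its covariate call was lost in all 8 of these fits (up to 0.122). Cxadr, an adhesion protein of epithelial junctions, rose by 1.51 ± 0.27 (1.16 ± 0.26), and its covariate call was lost without saline replicate 1 (limma adjusted p = 0.0579) or OVA replicate 1 (0.0759). Col4a3, a basement membrane collagen chain, rose by 2.17 ± 0.48. With the covariate its rise was 1.11 ± 0.23 (limma adjusted p = 0.015), and its slope of -0.64 per unit of the ratio was called; the covariate call was lost without saline replicate 2 or OVA replicate 1 (up to 0.0567). Ccn1, a secreted matrix protein, rose by 0.73 ± 0.15 (0.68 ± 0.16), and Mettl7a2, a methyltransferase-like protein, by 1.45 ± 0.31 (1.51 ± 0.34). The covariate call of Ccn1 was lost without saline replicate 2, 3 or 4 or OVA replicate 1 or 4 (limma adjusted p up to 0.0986). That of Mettl7a2 was lost without saline replicate 1 or 2 or OVA replicate 1 or 4 (up to 0.0766).

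**Figure D3:**
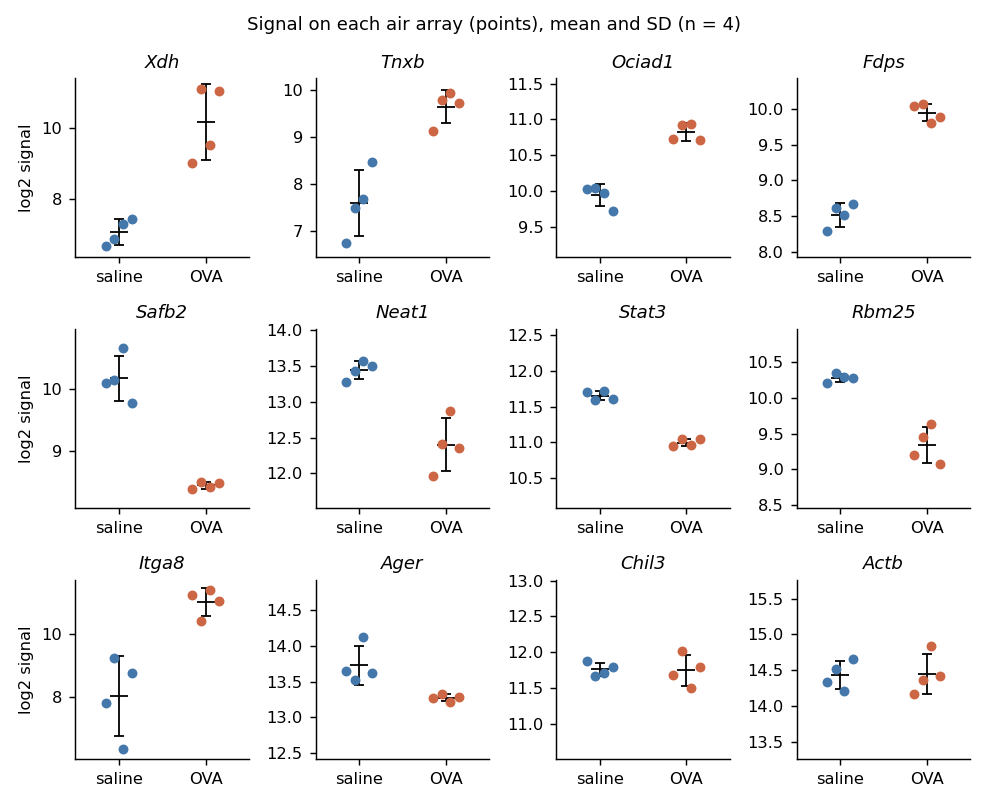
Log2 signal of 12 genes on each air array (points), with the group mean and SD (n = 4); the axis range differs between panels. The first 8 panels are genes called in both fits, Itga8 and Ager were called without the covariate only, and Chil3 and Actb were not called.

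Of the genes that fell, Safb2 had the smallest adjusted p with the covariate. Safb2 and its neighbour Safb encode nuclear proteins that bind scaffold-attached DNA and RNA. The 2 genes lie head to head on mouse chromosome 17, with RefSeq start sites 397 bases apart (GRCm38.p6). The 250 bases before each start are shown because the 2 genes share them in part: the 104 bases in capitals belong to both windows, read on opposite strands. The Safb2 window is chr17:56584586-56584835 on the minus strand and the Safb window chr17:56584732-56584981 on the plus strand.
Safb2: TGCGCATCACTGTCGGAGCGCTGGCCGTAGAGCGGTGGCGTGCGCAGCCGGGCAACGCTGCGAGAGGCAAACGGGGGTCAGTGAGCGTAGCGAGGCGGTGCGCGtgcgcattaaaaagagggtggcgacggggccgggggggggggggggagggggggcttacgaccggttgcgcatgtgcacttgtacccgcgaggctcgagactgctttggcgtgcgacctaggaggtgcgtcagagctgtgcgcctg
Safb: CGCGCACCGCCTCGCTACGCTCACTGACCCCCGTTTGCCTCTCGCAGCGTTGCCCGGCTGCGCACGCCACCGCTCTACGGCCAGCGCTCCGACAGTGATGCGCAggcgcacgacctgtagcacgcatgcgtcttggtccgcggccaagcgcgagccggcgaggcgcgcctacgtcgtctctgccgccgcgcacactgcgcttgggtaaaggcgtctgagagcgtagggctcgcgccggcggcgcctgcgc
The windows held 69.2% and 72.4% of G and C bases. On either strand, neither held the GC box GGGCGG, the CCAAT box CCAAT, the TATA box TATAAA or the E-box CACGTG. Of 32851 windows of that length in the RefSeq table, GGGCGG was in 32.7%, CCAAT in 33.8%, TATAAA in 12.4% and CACGTG in 6.02%. Over the 6745 windows of tested genes the shares were 60.2%, 35.4%, 6.95% and 8.29%, and over the 67 of genes that fell in both fits 62.7%, 43.3%, 8.96% and 7.46%.

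Safb2 read 10.10, 10.14, 10.66 and 9.78 in saline and 8.38, 8.51, 8.42 and 8.48 in OVA. The OVA arrays lay within a narrow band, below every saline array. The fall was 3.29-fold (-1.72 ± 0.25 log2; limma adjusted p = 0.000496). With the covariate it was -1.19 ± 0.14 (adjusted p = 0.000134), and no tested gene had a smaller adjusted p in that fit. It was called in every fit with an air array left out, without the 3 arrays that stand apart (limma adjusted p = 0.0457), and with B1 in the model too (0.000737). Of its other tested probe sets, one fell by 1.10 and was called, and one differed by -0.15 and was not. Probes of the set that speaks for it match more than 1 transcript, so Safb2 and Safb cannot be told apart with certainty. Safb, singled out after its values were seen, differed by -0.68 ± 0.17 (limma adjusted p = 0.0134), and by -0.56 with the covariate (adjusted p = 0.102).

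Further falls were called in both fits. Zbtb20, a zinc finger repressor, read 11.45, 11.42, 11.76 and 11.32 in saline and 9.49, 9.82, 9.67 and 9.73 in OVA, a 3.5-fold fall (-1.81 ± 0.33; -1.12 ± 0.21 with the covariate). Arhgap31, which switches off the GTPases Cdc42 and Rac1, fell by 1.54 ± 0.23 (-1.32 ± 0.24), while its other tested probe set rose by 0.86. Ankhd1, a large ankyrin-repeat protein, read 9.50, 9.45, 9.58 and 9.47 in saline and 8.31, 8.14, 8.33 and 8.04 in OVA. Its fall of -1.29 ± 0.17 (limma adjusted p = 0.000399) was -1.04 ± 0.16 with the covariate, and it was called without the 3 arrays that stand apart (0.0387). Stat3, the transcription factor that acts downstream of Il6 and related cytokines, lay at 11.70, 11.60, 11.72 and 11.60 in saline and at 10.95, 11.05, 10.96 and 11.04 in OVA. Its difference of -0.66 ± 0.10 (limma adjusted p = 0.000876) was the same with the covariate. The 2 other tested probe sets of Stat3 differed by 0.35 and -0.37 and were not called.

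Fam193b fell by 1.22 ± 0.16, Agap1, a regulator of endosome traffic, by 0.90 ± 0.12, and Mapt, the microtubule protein tau, by 0.94 ± 0.13, each with a limma adjusted p of 0.000399. Mapk8ip3, a scaffold for JNK kinases, fell by 1.04 ± 0.19, while its other tested probe set lay at 0.57, and at -0.01 with the covariate, and was not called. Sh3bp1, another inactivator of Rac1, fell by 1.40 ± 0.30 and Akap8l, a nuclear anchoring protein, by 1.08 ± 0.21. The covariate call of Sh3bp1 was lost without saline replicate 1 or 2 or OVA replicate 2 or 3, and that of Akap8l without saline replicate 2 or OVA replicate 1 (limma adjusted p up to 0.0778 and 0.078). Leng8 and Tbc1d17 fell by 1.09 and 1.01. Of 31 genes named by the rule and called in both fits, 16 were called in both fits under all 8 fits that left out an air array. The 16 are Xdh, Tnxb, Copg2, Rraga, Fdps and Ociad1 among the rises, and Safb2, Zbtb20, Arhgap31, Ankhd1, Fam193b, Mapk8ip3, Stat3, Mapt, Agap1 and Neat1 among the falls. With B1 and the ratio both in the model, 7 of the 36 rises and 17 of the 82 falls were called. Fdps, Rraga, Zbtb20 and Arhgap31 of the 16 were not (limma adjusted p = 0.0752, 0.102, 0.0624 and 0.0692). Other probe sets of the same gene often lay on the opposite side of 0. Among falls called in both fits, 16 of 35 genes with another tested probe set had all of them on the same side (45.7%), against 14 of 16 among the rises (87.5%) and 1419 of 2834 over all tested genes (50.1%). For 4 of the 35 falls and 0 of the 16 rises another probe set was called in the opposite direction.

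Several RNAs that stay in the nucleus, and several proteins that process RNA there, were lower in OVA. Of 8 tested members of the list of nuclear-retained long RNAs, 3 fell without the covariate and 2 with it, by the probe sets that speak for them. Of all tested genes 7.73% and 1.03% did, and 0 of the 8 rose. Their median difference was -0.48 (log2), or -0.44 with the covariate, beside -0.04 over all tested genes in both fits. Another probe set of the member Tug1 was called without the covariate (limma adjusted p = 0.0223). It lay at 1.78 with the covariate when the 3 arrays that stand apart were left out (adjusted p = 0.0457). Neat1, the RNA that builds paraspeckles, read 13.28, 13.43, 13.57 and 13.50 in saline and 11.96, 12.41, 12.87 and 12.36 in OVA. It fell 2.06-fold (-1.04 ± 0.16; limma adjusted p = 0.000876), and by 1.06 ± 0.17 with the covariate. Airn, the RNA that silences imprinted genes near Igf2r, fell by 0.89 ± 0.21 (-0.98 ± 0.23), and Meg3, an imprinted RNA, by 0.89 ± 0.21 without the covariate only. Malat1, an RNA of nuclear speckles, differed by -0.70 ± 0.26 and was not called (limma adjusted p = 0.0717), but 2 of its other tested probe sets were, at -1.12 and -1.46. The remaining tested sets of Malat1 lay at -1.55 and 0.56 and were not called. B1, the repeat of unspliced transcripts, was lower in OVA as well, by 1.19 (log2). With B1 and the ratio both in the model, Neat1 was called (limma adjusted p = 0.031) and Airn was not (0.119). The part of B1 or of the ratio in these falls was not tested.

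Of 42 tested splicing factors and nuclear RNA-binding proteins, 9 fell and 0 rose without the covariate, and 3 fell with it, to be read against the same 7.73% and 1.03%. The list median was -0.19, and -0.24 with the covariate. Rbm25, a splicing regulator, read 10.21, 10.34, 10.29 and 10.28 in saline and 9.20, 9.46, 9.64 and 9.08 in OVA, a fall of -0.94 ± 0.17 (limma adjusted p = 0.00365; -0.81 ± 0.18 with the covariate, adjusted p = 0.0212). Son, a core protein of nuclear speckles, fell by 1.03 ± 0.20 (-0.76 ± 0.19). Its other tested probe sets did not follow: 4 of 5 were above 0, and one, at 1.31, was called higher. Rbm39 fell with the covariate only (-0.94 ± 0.22; limma adjusted p = 0.0304) and lay at -0.65 ± 0.23 without it. By the probe sets that speak for them, Sfpq, Luc7l3, Ewsr1, Nktr, Rbm5, Hnrnpdl and Ddx17 fell without the covariate only. These falls were between 0.46 for Hnrnpdl and 1.30 for Sfpq. Another tested set of Luc7l3 fell in both fits, by 1.34 and by 1.08 with the covariate (limma adjusted p = 0.00448 and 0.0327). Another of Ddx17, at -0.67, was called without the covariate only. Those of Ewsr1, at 0.34, and of Hnrnpdl, between -0.40 and 0.37, were not called. The covariate calls of Rbm25 were lost without saline replicate 2 (limma adjusted p = 0.0772) or OVA replicate 1 or 4 (0.0668 and 0.0672), and those of Rbm39 and Airn without saline replicate 2 or 4 or OVA replicate 1 or 4, with OVA replicate 2 as well for Rbm39 (up to 0.107 for both). That of Son was lost without saline replicate 1, 2 or 4 or OVA replicate 1 or 4 (limma adjusted p up to 0.123). Further falls called in both fits, picked after their values were seen, were in the mRNA export genes Nxf1 (-0.87 with the covariate) and Ddx39b (-0.57), the RNA-processing gene Srrt (-0.67) and the poly(A)-binding gene Pabpn1 (-0.60).

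The largest differences without the covariate were mostly not called with it. Itga8, an integrin chain of fibroblasts and smooth muscle, read 7.84, 9.24, 6.37 and 8.77 in saline and 11.22, 10.40, 11.39 and 11.05 in OVA. The lowest value was on saline replicate 3, the array of highest ratio. Its rise was 2.96 ± 0.81 (7.78-fold; limma adjusted p = 0.0214), its slope on the ratio was -1.12 per unit, and its covariate value was 1.09 ± 0.32 (adjusted p = 0.079). Dach1, a transcription regulator, went from 2.49 ± 0.69 to 1.16 ± 0.48, Slc6a14, an amino acid transporter, from 2.01 ± 0.49 to 0.93 ± 0.26, and Nt5e, which makes adenosine outside cells, from 1.89 ± 0.50 to 0.85 ± 0.31. All 4 had called slopes below 0. Clasrp, a splicing regulator, showed the largest fall without the covariate, -2.19 ± 0.70 (limma adjusted p = 0.0389). Its value hardly moved with the covariate, -2.21 ± 0.77, but was not called (adjusted p = 0.135), and its OVA arrays were spread from 5.29 to 8.29. Further large rises called without the covariate only were in Rab27b, a GTPase of secretory vesicles, by 1.89 ± 0.47 (1.30 ± 0.45 with the covariate), and Ralgapa1, by 1.87 ± 0.63 (0.58 ± 0.41). Further large falls of that kind were in Anks3, by 1.87 ± 0.55, Sema6b, a semaphorin, by 1.65 ± 0.53, Gys1, which makes glycogen, by 1.56 ± 0.50, Atp6v1c2, a proton pump subunit, by 1.45 ± 0.39, and Acvr2b, an activin receptor, by 1.39 ± 0.29. Of 84 genes named here and called without the covariate only, 8 were called whichever air array was left out, Acvr2b, Cks2, Fos, Hnrnpdl, Pigr, Ptprb, Rab27b and Rbm5. Pigr, which carries IgA across epithelium, fell by 0.92 ± 0.22 (limma adjusted p = 0.0117) and lay at -0.57 ± 0.19 with the covariate (adjusted p = 0.108).

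Type 2 inflammation could be followed only in part, since 13 of the 37 list members on the array were tested. Of 13 tested members of the type 2 and allergic airway list, 1 rose (7.69% of the list, beside 5.36% of all tested genes) and 0 fell without the covariate, and 0 were called with it. The one that rose was Il13ra1, a receptor chain for Il13, by 0.74 ± 0.22 (limma adjusted p = 0.0301; 0.51 ± 0.23 with the covariate, adjusted p = 0.255). Chil3 read 11.87, 11.66, 11.71 and 11.79 in saline and 11.67, 12.02, 11.49 and 11.78 in OVA, with overlapping groups and a difference of -0.01 ± 0.16. Retnla differed by -0.03 ± 0.21, Il4ra, the receptor chain for Il4, by -0.15 ± 0.14, and Ccl8, a chemokine, by 0.22 ± 0.15, and none was called in either fit. Ccl17, a chemokine that draws T helper 2 cells, read 7.10, 7.11, 6.73 and 7.43 in saline and 7.67, 7.73, 7.92 and 7.69 in OVA. These values did not overlap, but the difference of 0.66 ± 0.25 was not called (limma adjusted p = 0.0758; 0.77 ± 0.28 with the covariate, adjusted p = 0.157). Values without overlap were found for 2184 of 8315 tested genes (26.3%).

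The cytokines Il4, Il5 and Il13, the eosinophil chemokines Ccl11 and Ccl24, and the mucus genes Clca1 and Muc5ac lay below the limit for testing, a geometric mean signal of 138.3. Linear signals of Il13 were between 7.92 and 20.9 in saline and between 11.5 and 14.4 in OVA, and those of Muc5ac between 21.4 and 46.2 and between 14.4 and 49.5. Eosinophil markers were low in both groups: Epx and Prg2, proteins of the granules, summed to between 60.5 and 127 in saline and between 53 and 179 in OVA, and 0 of 7 markers on the array could be tested. Muc5b, the main mucin of resting airways, differed by -0.49 ± 0.26. Saa3, an acute phase protein, differed by 0.31 ± 0.48 and Cd177, a neutrophil protein, by -0.33 ± 0.30. In whole lung, fewer cells of a type and less RNA per cell cannot be told apart.

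Markers of the other white cells showed 0 calls in either fit: 5 tested genes of mast cells and basophils, 10 of neutrophils, 15 of alveolar macrophages, 15 of T and NK cells and 11 of B cells (limma; 8 of these at an unadjusted p under 0.05). Of all tested genes 13.1% were called without the covariate and 1.49% with it. Among the B cell genes, Ighm, the heavy chain of IgM, differed by -0.75 ± 0.41 and Jchain, which joins IgM and IgA, by 0.13 ± 0.18. Of 9 class II antigen presentation genes, Cd74, the class II invariant chain, fell by 0.39 ± 0.11 without the covariate. Of 19 tested chemokines and inflammatory cytokines, 3 rose and 0 fell without the covariate and 0 were called with it. They were Csf1, the macrophage growth factor, by 0.59 ± 0.15, Ccl6 by 0.46 ± 0.15, and Cxcl13, which draws B cells, by 1.54 ± 0.47. These counts are for the probe sets that speak for the genes. Another tested set of Ccl6 rose by 0.94 and was called with the covariate too (0.77; limma adjusted p = 0.0392). Other tested sets of Csf1, at 0.01 and 0.11, and of Cxcl13, at 0.33, were not called. Cxcl13 read 8.09, 8.48, 5.20 and 8.22 in saline and 8.84, 9.05, 9.25 and 9.02 in OVA, so that its low value was again on saline replicate 3. With every array set to the same median, 2 of the 19 were called. The summed signal of this list was 20650 to 23230 in saline and 24180 to 28680 in OVA, without overlap. Sums without overlap were not particular to it. The aryl hydrocarbon receptor list was higher in OVA in this way. Lower were the lists of mast cells and basophils, type 1 cells and ribosomal proteins. Of 31 interferon-stimulated genes 0 were called in limma (5 at an unadjusted p under 0.05), though 1 was called higher and 3 lower under quantile normalization, and 0 higher and 3 lower under median scaling. Of 16 complement genes C1qb and Hc fell, by 0.56 and 0.57, and of 11 acute phase genes 1 fell, Pigr, all without the covariate. The other tested sets of C1qb, at 0.62 and -0.15, were not called.

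The tissue carried the defining genes of lung at high signal, and several fell without the covariate, where 7.73% of all tested genes did. Sftpc, the surfactant protein of alveolar type 2 cells, read 14.89 ± 0.24 (SD, n = 4) in saline and 14.62 ± 0.23 in OVA. Scgb1a1 of club cells read 14.62 ± 0.26 and 14.34 ± 0.24, and neither gene was called in either fit. Of 20 type 2 cell markers 3 fell, Hc, Lpcat1 and Abca3, by 0.57, 0.39 and 0.46, and 1 rose, the transcription factor Etv5, by 1.75 ± 0.46. For Abca3 another tested probe set, at 0.82, was not called, and a further set, at -0.92, was called lower. Of 13 type 1 cell markers Ager and Limch1 fell, by 0.46 and 0.36, and Sema3e rose by 1.35. Ager, the receptor that marks type 1 cells, read 13.65, 13.52, 14.13 and 13.62 in saline and 13.27, 13.33, 13.21 and 13.29 in OVA. With the covariate 0 of these 33 genes were called in limma (6 at an unadjusted p under 0.05), and Ager was at -0.20 ± 0.10. The type 2 cell counts turned under quantile normalization, where 3 rose and 2 fell.

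Of 29 endothelial markers, Ptprb, Egfl7 and Vwf fell, by 0.62, 0.76 and 0.53, and 0 rose. Of 15 smooth muscle genes, Acta2 and Tpm2, parts of the contractile apparatus, fell by 0.60 and 0.89, and Hhip, a hedgehog antagonist, rose by 1.20. Of 34 fibroblast and matrix genes 4 rose and 2 fell without the covariate. The rises were in Ccn1, Lum, Tcf21 and Col5a2, by 0.73, 0.73, 0.55 and 0.52, and the falls in Mmp14 and Bgn, by 0.63 and 0.46. For Bgn another tested probe set, at 0.06, was not called, and a further set, at -0.39, was called lower without the covariate. With the covariate Ccn1 rose and the collagenase Mmp14 fell, by 0.57 ± 0.14 (limma adjusted p = 0.04), and both calls were lost under median scaling. That of Mmp14 was also lost without saline replicate 2 or 3 or OVA replicate 2, 3 or 4 (up to 0.119). Of 18 club cell genes 1 rose, Gsta3, by 1.10 ± 0.27. Ciliated cells (10 tested), mesothelium (8), heart (19), fat (6) and other neighbouring tissues (4) had 0 calls in limma, with 2 at an unadjusted p under 0.05. These counts are for the probe sets that speak for the genes. Other tested sets rose in Fmo2 of the club cell list (1.96), Cd24a of the ciliated list (1.34) and Gpm6a of the mesothelial list (1.28). They were called without the covariate only (limma adjusted p up to 0.0277). A further set of Cd24a, at 0.02, and another of Gsta3, at -0.11, were not called. Of 6 red cell and platelet genes 1 rose, Car2, and of 6 mucus and secretory airway genes 1 fell, again Pigr. The summed markers of type 1 cells were 16810 to 23290 in saline and 14420 to 15320 in OVA, and those of smooth muscle 7550 to 11450 and 5330 to 6890. Each sum was mostly 1 gene. Among type 1 markers Ager had geometric means of 13560 in saline and 9895 in OVA, while Pdpn and Aqp5 overlapped between the groups. In smooth muscle Acta2 went from 8268 to 5454, while Myh11 went from 554 to 601. The summed markers of type 2 cells, club cells, endothelium and heart overlapped. Heart markers, at 7377 to 10700 in saline and 4875 to 8196 in OVA, were present on all 8 arrays. The part of unequal sampling of tissue in these values was not tested.

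The lists of metabolic and stress genes are to be read against all tested genes, of which 5.36% rose and 7.73% fell without the covariate and 0.457% and 1.03% with it. Of 21 enzymes of the tricarboxylic acid cycle 3 rose without the covariate, Idh3a, Dld and Sdhd, and 0 fell; under median scaling 2 rose and 1 fell. Idh3a, a subunit of NAD-dependent isocitrate dehydrogenase, read 9.35, 9.30, 8.82 and 9.30 in saline and 10.25, 10.08, 10.16 and 10.18 in OVA. It rose by 0.97 ± 0.22 and was called with the covariate too (0.50 ± 0.12; limma adjusted p = 0.029), though not without saline replicate 2 or OVA replicates 1, 2 or 4. The other tested probe set of Idh3a lay at 0.00, and at -0.24 with the covariate, and was not called. In the list of cholesterol and fatty acid synthesis (19 tested) Fdps and Nsdhl rose and Hmgcs1 fell, by 0.65 ± 0.21, and Fdps alone was called with the covariate. For Hmgcs1 the other tested probe sets, at 0.39, -0.04 and 0.85, were not called. Of 57 genes of oxidative phosphorylation Sdhd and Cycs rose, by 0.74 and 0.50, and Ndufs7 fell by 0.43 (2 rose and 3 fell under quantile normalization, and 0 rose and 1 fell under median scaling), and of 15 of glycolysis 1 rose, Pgam1. Of 31 proteasome subunits Psma1, Psma2, Psmc6 and Psmd12 rose, by 0.64, 0.51, 0.58 and 0.38, and Psmd13, Psmd4, Psmc5 and Psmd3 fell, by 0.87, 0.62, 0.59 and 0.44; with every array set to the same median 1 rose and 4 fell. Of 42 cytosolic ribosomal protein genes 1 fell, Rpsa, by 0.77 ± 0.26; their median was -0.22, -0.03 with the covariate, and -0.04 after quantile normalization. Their median slope on the ratio was 0.12 per unit.

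Against the same shares of all tested genes, 5.36% higher and 7.73% lower without the covariate, counts in the remaining lists were as follows. Of 15 clock genes, Cry2, Per1 and Tef fell, by 0.76, 0.51 and 0.31, and 0 rose without the covariate; 0 were called with it, and the hour of collection is not in the labels. Of 27 glucocorticoid-responsive genes Per1 and Klf9 fell, Klf9 by 0.54. Other tested probe sets of Klf9 did not follow. One of them rose by 3.02 (limma adjusted p = 0.00938), and by 1.55 with the covariate (adjusted p = 0.0277). Of 19 immediate early genes Fos, Klf10 and Maff rose, by 1.03, 0.58 and 0.75, and Jund fell by 0.55. Under median scaling 1 of the immediate early genes rose. Fos, a quickly induced transcription factor, kept a value of 0.77 ± 0.23 with the covariate (limma adjusted p = 0.0809). Among 26 genes of the unfolded protein response Edem1, Sel1l and Dnajb9 rose and Atf4 fell, by 0.65 ± 0.16. Of 22 heat shock genes Dnajb4 rose and Bag3, Ahsa1 and Hsp90aa1 fell. The other tested sets of Hsp90aa1, at 0.26 and 0.06, were not called. Of 24 targets of the antioxidant factor NRF2, Gstp1, Pgd and Taldo1 fell, by 0.54, 0.79 and 0.53, and 0 rose, though 2 rose under quantile normalization. Of 16 cell cycle genes Cks2 and Pcna rose, by 0.90 and 0.61, and Cdc20 fell by 0.78; under quantile normalization 2 rose and 3 fell. Targets of the aryl hydrocarbon receptor (6 tested) and of p53 (14 tested) had 0 calls in limma, with 6 at an unadjusted p under 0.05. With the covariate, 0 genes of the lists in this paragraph were called by the probe set that speaks for them.

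**Figure D4:**
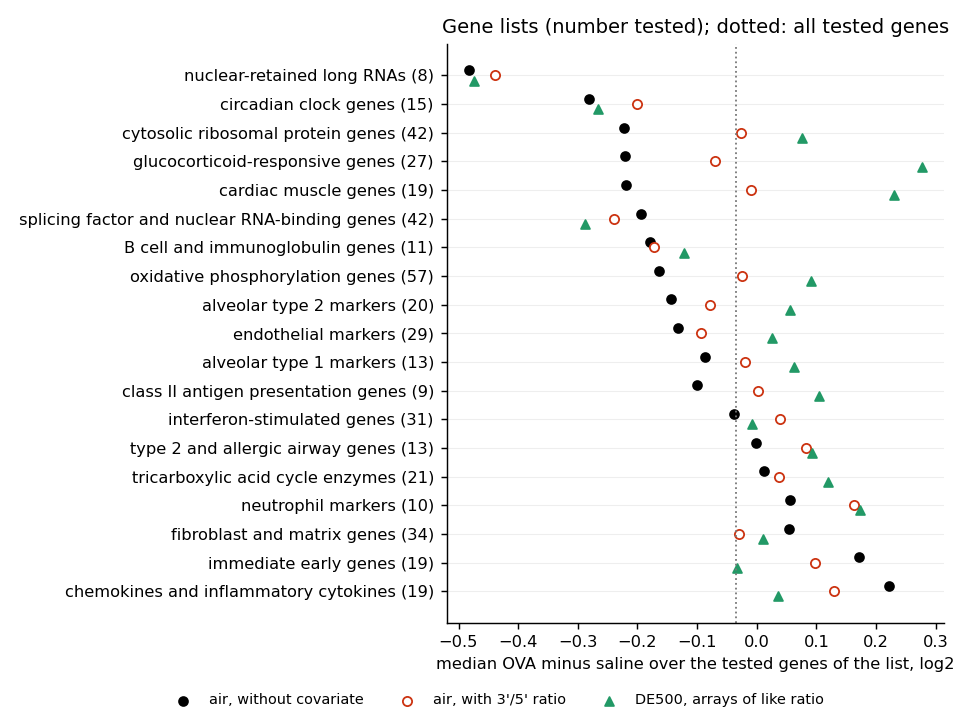
Median OVA minus saline (log2) over the tested genes of 19 lists, in air without the covariate (filled circles), in air with it (open circles), and at DE500 over arrays of like ratio (triangles); the dotted line is the median of all tested genes in air, -0.04. Nuclear-retained RNAs, at -0.48, -0.44 and -0.47, and splicing genes, at -0.19, -0.24 and -0.29, lie below 0 in all 3, while ribosomal protein genes lie at -0.22, -0.03 and 0.08.

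OVA and saline were also compared at both doses of exhaust. Without the covariate these comparisons share no array with the air comparison, though all 3 share 1 estimate of spread. The air values with the covariate do share arrays with them, since their slopes rest largely on DE500_saline and DE2000_OVA, so the genes below are followed from the fit without it. At DE500, 896 genes were called (10.8%), and at DE2000 1415 (17%). Of the 446 genes called higher in air without the covariate, 429 were above 0 at both doses and 125 were called higher at both, where 4.57% and 6.88% of all tested genes were called higher at DE500 and DE2000. Of the 643 called lower, 626 were below 0 at both doses and 239 were called lower at both, where 6.21% and 10.1% of all tested genes were called lower at DE500 and DE2000. These shares are for each dose alone. The share of all tested genes on the same side, or called, at both doses was not counted. At all 3 exposures the saline group had the higher mean ratio, though single arrays of saline and OVA overlapped at both doses of exhaust. The part of the ratio in the likeness between exposures was not tested. Across the 8315 genes, which are not independent, the air differences correlated with those at DE500 at r = 0.781 and with those at DE2000 at r = 0.721, given as a description only.

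At DE500 there were arrays of like ratio in the 2 groups. The 4 DE500_OVA arrays and DE500_saline 2 and 3 all had ratios under 0.5. Their B1 signals did not overlap, at 12.08 and 12.30 (log2) on the saline arrays and 11.41 to 11.94 on the OVA arrays. The part of B1 in the comparison of these arrays was not tested. This comparison was chosen after the values were seen. It called 45 genes (0.541%), 8 higher (0.0962%) and 37 lower (0.445%). Of the 446 and 643 genes called higher and lower in air without the covariate, 410 and 590 lay on the same side of 0 in it, with medians of 0.23 and -0.32; of all tested genes 48.5% lay above 0 and 51.5% below. The values of single genes that follow are a description beside those in air and no independent support, since the covariate fit in air drew on the same DE500_saline arrays. Xdh was higher there by 3.35 (limma adjusted p = 0.0034) and Ociad1 by 1.21 (8.3e-05). Stat3 was lower by 0.64 (limma adjusted p = 0.0036), Rbm25 by 1.01 (0.008), Neat1 by 1.02 (0.016), Zbtb20 by 1.06 (0.025) and Malat1 by 1.52 (0.025). Safb2 was at -0.71 (limma adjusted p = 0.072), Fdps at 0.73 (0.058) and Tnxb at 1.22 (0.2), without a call. Itga8, called in air without the covariate only, was at 0.58 (limma adjusted p = 0.7).

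**Figure D5:**
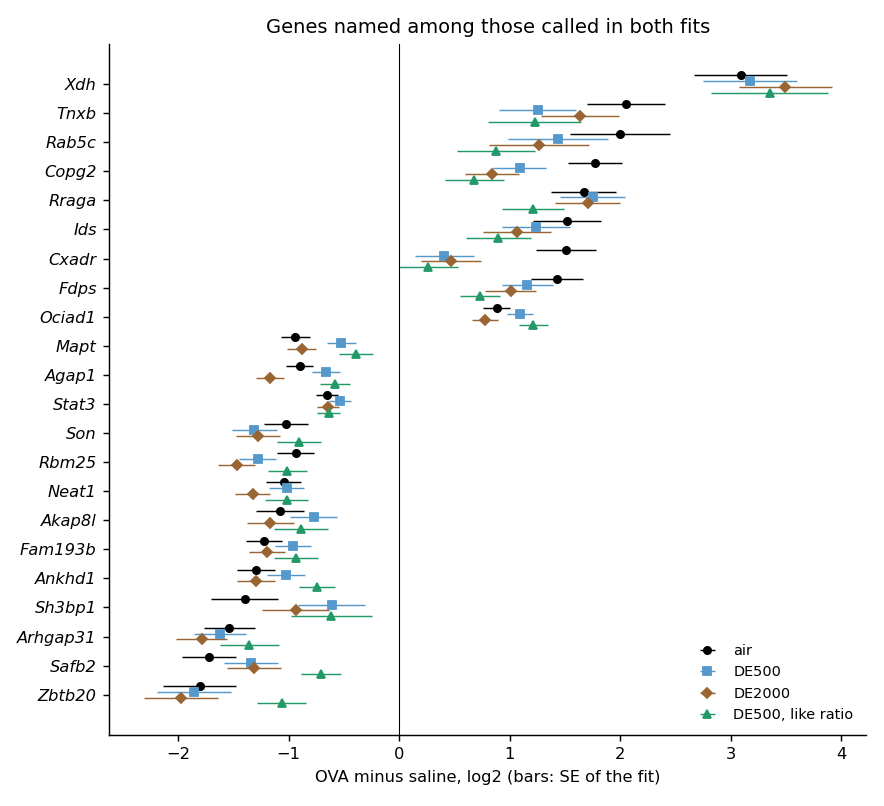
OVA minus saline (log2, bars are SE of the fit) of genes named among those called in both air fits, in air, at DE500, at DE2000, and at DE500 over arrays of like ratio. Xdh lies at 3.09, 3.17, 3.49 and 3.35, while Cxadr, at 1.51 in air, lies at 0.41, 0.47 and 0.26 in the others.

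The test of the difference itself found little between exposures. No probe set had an OVA effect in air that differed from that at DE500 or at DE2000 without the covariate (limma, 0 and 0 called, 419 and 829 with an unadjusted p under 0.05). With the covariate the counts were 0 and 1 (0.00737%; 856 and 1139 unadjusted). The 1 was Tbx4, a transcription factor of lung mesenchyme, singled out after its values were seen: it lay at 0.33 in air and at -0.89 at DE2000, a difference of 1.22 ± 0.20 (limma adjusted p = 0.0476), and was not called without the covariate (1.26; adjusted p = 0.0852). These counts depended on 1 array, since without saline replicate 4 of the air arrays 10 probe sets differed from DE500 and 64 from DE2000 without the covariate. Mettl7a2, at 1.45 in air, 0.25 at DE500 and 0.00 at DE2000, did not pass this test (limma adjusted p of the difference from DE2000 = 0.469), and neither did Cxadr (0.637).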

How the data were processed

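The authors deposited, per the labels, 1 linear signal intensity per probe set and array, made with MAS5 from biotin-labelled cRNA of 2 ug of total RNA per the labels' protocols; its version is not given in the sources that were used. Each array's trimmed mean signal was near 500.2, so the arrays had been scaled to 1 level. Signals were taken to log2. Of 22690 probe sets, 64 controls were set aside and 13576 of the rest, at or above the 40th percentile of mean log2 signal, were tested. A probe set was named through GEO's platform annotation where it gave 1 gene (20380 probe sets; 691 gave several and 1555 none). Symbols, promoters and their build came from RefSeq tables.

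Group means of all 24 arrays in 6 groups were fitted with limma 3.58.1 (R 4.3.3; lmFit, eBayes with trend), so that the 6 groups share 1 estimate of spread, and p-values were adjusted by Benjamini-Hochberg over all tested probe sets. A second fit added the mean of the Gapdh and actin log2 3'/5' ratios. Group labels came from the titles. Single control measures were compared by exact permutation over the 70 splits of 4 against 4. No pair of arrays held identical values. The scripts were tested on simulated data.

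The text names the 10 largest rises and falls called in each fit that were named by a single gene (without overlap between arrays in the fit without the covariate), the 10 genes of smallest adjusted p in both fits, the called members of each list and 16 fixed genes, of which Igkc and Gapdh were not among the tested genes. Up to 4 members of smallest p in each list were chosen too, and those that were not called are mostly not printed. Genes outside this rule are said to be chosen after their values were seen. The members, lists and tests were chosen with earlier results of these data known. Alternatives were another normalization, filter, pseudocount, variance model, covariate or set of arrays.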

Additional observations from a re-analysis of the deposited data

Results flagged for a closer look

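In each group of 4 air arrays the gap between the highest or lowest array and its neighbour was set against the whole range of the group, and 15 of 272 such groups of the named genes passed Dixon's critical value. Chance passes about 1 in 20. Saline replicate 3, the array of highest 3'/5' ratio, was the lowest for Cycs (gap of 0.948 of the range), Dld (0.93), Psma1 (0.913), Idh3a (0.905), Psmd12 (0.889), Cxcl13 (0.881) and Car2 (0.835), and the highest for Vwf (0.96). Dld read 6.51 there against 7.64 to 7.72 on the other saline arrays, and Vwf read 11.99 against 11.56 to 11.58. OVA replicate 2 was the lowest for Col4a3 (0.889), Nt5e (0.863) and Saa3 (0.855). OVA replicate 4 was the highest for Ccn1 (0.87), at 10.82 against 10.05 to 10.15. OVA replicate 1 was the highest for Psmc5 (0.893), and OVA replicate 3 the lowest for Cycs (0.907). OVA replicate 3 was the highest for Ighm (0.911), at 10.61 against 9.57 to 9.66, within the saline range of 9.92 to 11.46.

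With the ratio as covariate, the effect of OVA on Tbx4 in air differed from that at DE2000 by 1.22 (limma adjusted p = 0.0476).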

How the results depend on the processing

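No called difference of a named gene turned its direction, nor did a control difference. The balance of calls did move, from 1035 higher and 969 lower to 830 and 1269 under median scaling, and the alveolar type 2 markers, cell cycle and oxidative phosphorylation lists changed sides in it under quantile normalization, the last also under median scaling. Without the covariate, 2004 probe sets were called. Quantile normalization gave 2280, median scaling 2099, no filter 1649, the stricter filter 1627, adding 50 before log2 2217 and no variance trend 1896. Counts moved further with only the 8 air arrays (3359), array weights (3687; the estimation of weights stopped short of its tolerance in at least 1 fit), 1 probe set per gene (1091), or without the 3 arrays that stand apart (3976). They moved most with a covariate, to 28 with B1, 52 with ratio and B1, 236 with the Gapdh ratio, 216 with the actin ratio and 240 with their mean. Leaving out 1 air array gave 450 to 1958.

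With the ratio, 240 probe sets were called. No filter gave 155, only the 8 air arrays 0, array weights 1322, ratio and B1 52, leaving out the 3 arrays 24, and 1 probe set per gene 114; leaving out 1 air array gave 70 to 246. For the difference from DE500, leaving out the 3 arrays gave 30 called against 0, and leaving out 1 air array 0 to 10. For the difference from DE2000, B1 gave 181 against 0, leaving out the 3 arrays 2, array weights, the Gapdh ratio, the mean ratio and 1 probe set per gene 1 each, and leaving out 1 air array 0 to 64. The cause of these moves was not tested. Neither difference can be fitted with only the 8 air arrays.

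Control differences kept their direction with 1 air array left out: -2.23 to -1.47 for the Gapdh ratio, -1.64 to -1.08 for actin, -1.92 to -1.28 for their mean, -1.32 to -1.03 for B1, 0.09 to 0.14 for the array median and -0.54 to -0.26 for hybridization.

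The replicate numbers did not pair the arrays: deviations from the group means of same-numbered arrays correlated at 0.057, -0.196, -0.111 and -0.030. A replicate block gave 2038 calls, and 162 with the ratio. Leaving out the 3 arrays, taking arrays of like ratio and 1 probe set per gene were chosen after seeing the data.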
